A study of Homo sapiens with 12 samples.

Results

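SOX17, SOX7 and SOX18 are the members of the F group of SOX transcription factors. They were chosen by symbol: every row of the deposited gene table that carried a member's symbol was taken, and rows that share a symbol were summed, which gave 3 genes of 35940 symbols. SOX17 and SOX18 each had 1 identifier in the table and SOX7 had 2. All 3 members passed the filter on low counts and were tested among 17047 genes.

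SOX proteins bind DNA through an HMG box, and the F group also carries a C-terminal activation region that binds beta-catenin, the transcriptional effector of WNT signalling. SOX17 is required for definitive endoderm in the mouse and also acts in human primordial germ cells, in arterial and hemogenic endothelium and in extraembryonic endoderm. SOX7 is known from parietal and visceral endoderm of the mouse and from early endothelium. SOX18 is known from vessel growth and, upstream of PROX1, from the start of lymphatic development in the mouse. All 3 are expressed in endothelial cells and can stand in for one another there in the mouse, whereas in endoderm it is SOX17 that carries the described role.

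The libraries came from ESI017 human embryonic stem cells with an mCitrine reporter in SOX2, grown as colonies confined to printed discs (micropatterns). Treated colonies received 200 ng/ml FGF8 and WNT3A at 100, 300 or 1000 ng/ml for 3 days and were then sorted into a SOX2-negative and a SOX2-positive fraction. Each fraction has 2 libraries at 100 ng/ml, 1 at 300 ng/ml and 2 at 1000 ng/ml. The 2 control libraries came from colonies kept for the same 3 days in the N2B27 base medium, without FGF8 or WNT3A, and their labels give no sort gate. All 12 libraries thus share 1 reporter line, the base medium and the micropattern, so p-values measure the spread between repeats of 1 line. No dose was given without FGF8, so WNT3A and FGF8 cannot be told apart as agents in any comparison with control.

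The libraries held 16474856 to 28079048 estimated counts. SOX2 itself was at 1.85 to 6.07 CPM (counts per 1000000 counts of the library) in the SOX2-negative libraries, at 430 to 484 CPM in the SOX2-positive libraries and at 649 and 658 CPM in control, so the gate held in every library. Along the second principal component, which carried 16.3% of the variance, WNT3A 100 SOX2-negative replicate 2 lay at 48 and the other SOX2-negative libraries between -12.9 and 0.3. With it left out, SOX17 and SOX18 between the fractions and their dose effects in SOX2-negative cells are given below. In these bulk RNA samples, fewer cells of a type and less RNA per cell cannot be told apart.

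SOX17 was abundant in the SOX2-negative fraction, scarce in the SOX2-positive fraction and not detected in control. In SOX2-negative libraries it measured 500 and 744 CPM at 100 ng/ml WNT3A, 525 CPM at 300 ng/ml and 496 and 339 CPM at 1000 ng/ml. In SOX2-positive libraries it measured 1.85 and 3.09 CPM at 100 ng/ml, 4.74 CPM at 300 ng/ml and 3.46 and 8.68 CPM at 1000 ng/ml. The lowest SOX2-negative value lay far above the highest SOX2-positive value. The share of all genes whose fractions also do not overlap was not counted. Neither control library held a single SOX17 count, that is, 0 of 47825616 counts over both. A count of 0 allows up to 3 counts over the group, or 0.0627 CPM, which covers counting error only.

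SOX18 had the same order of fractions at a far lower level. In SOX2-negative libraries it measured 9.29 and 22.4 CPM at 100 ng/ml, 13.5 CPM at 300 ng/ml and 16.1 and 6.94 CPM at 1000 ng/ml. In SOX2-positive libraries it measured 1.39 and 0.423 CPM at 100 ng/ml, 0.691 CPM at 300 ng/ml and 0.728 and 0.696 CPM at 1000 ng/ml. Control libraries held 0.101 and 0.356 CPM, from 2 and 10 counts. Each SOX2-negative library was above each SOX2-positive library, and each SOX2-positive library was above each control library. The nearest SOX2-positive and control values, 0.423 and 0.356 CPM, rest on 10 counts each. The share of all genes with this order was not counted.

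SOX7 was low in every library, at 0.463 to 3 CPM, where 3 counts would be 0.107 to 0.182 CPM. In SOX2-negative libraries it measured 0.85 and 1.92 CPM at 100 ng/ml, 0.741 CPM at 300 ng/ml and 1.05 and 3 CPM at 1000 ng/ml. In SOX2-positive libraries it measured 1.69 and 0.972 CPM at 100 ng/ml, 0.839 CPM at 300 ng/ml and 1.21 and 1.44 CPM at 1000 ng/ml. Control libraries held 2.13 and 0.463 CPM. The groups overlapped: the highest value was in WNT3A 1000 SOX2-negative replicate 2 and the lowest in a control library. These values rest on 12.94 to 73 estimated counts per library, so counting error is large in each.

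**Figure D1:**
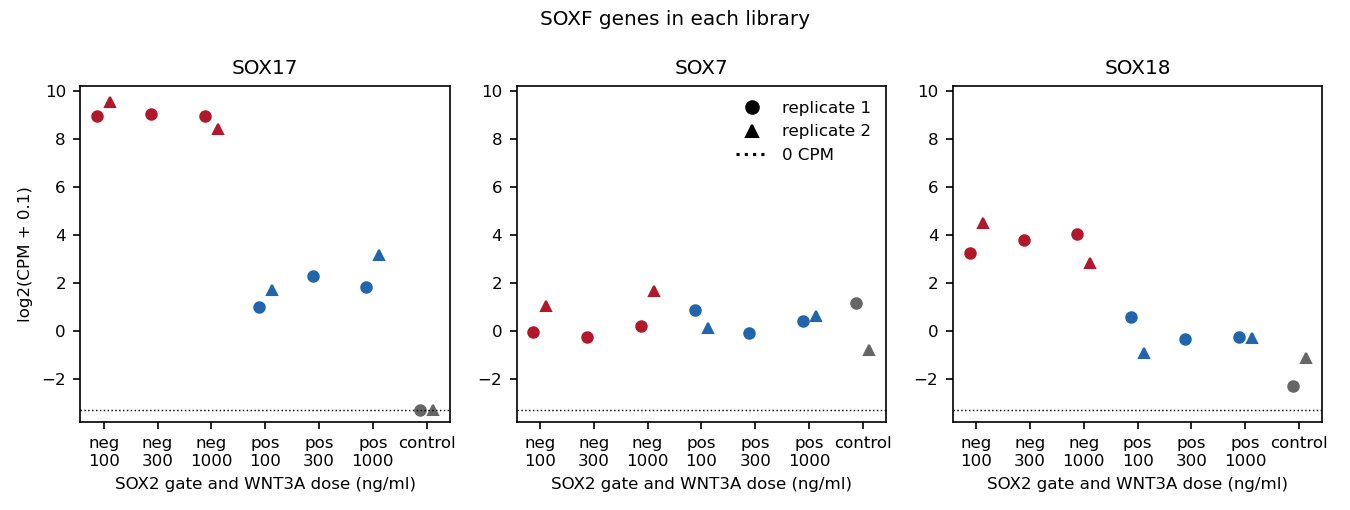
Log2 of CPM plus 0.1 (y axis) of SOX17, SOX7 and SOX18 in separate panels, with 1 point per library, the SOX2 gate and WNT3A dose along the x axis, colours for SOX2-negative, SOX2-positive and control, and a dotted line at 0 CPM. SOX17 lies at 339 to 744 CPM in SOX2-negative libraries, at 1.85 to 8.68 CPM in SOX2-positive libraries and at 0 in control, whereas the SOX7 points of all groups overlap.

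The first comparison sets the SOX2-negative against the SOX2-positive fraction of the same treated colonies, over the 4 libraries of each at 100 and 1000 ng/ml. SOX17 averaged 520 ± 167 CPM in SOX2-negative cells and 4.27 ± 3.02 CPM in SOX2-positive cells (SD, n = 4 each). The log2 fold change was 7.12 ± 0.39 (SE), a 139-fold difference with a 95% interval of 76.2 to 252 and an adjusted p of 2.3e-06 by edgeR's quasi-likelihood test. Among the 17047 genes it ranked 24 by log2 fold change. SOX18 averaged 13.7 ± 6.99 CPM in SOX2-negative cells and 0.808 ± 0.409 CPM in SOX2-positive cells (SD, n = 4 each), an 18.1-fold difference with an interval of 8.21 to 40 (edgeR adjusted p = 2e-04). It ranked 312.

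SOX7 did not pass the test at an adjusted p under 0.05, the threshold for every call below. It averaged 1.7 ± 0.98 CPM in SOX2-negative cells and 1.33 ± 0.309 CPM in SOX2-positive cells (SD, n = 4 each). Its log2 fold change was 0.44 with an interval of -0.89 to 1.77 (edgeR adjusted p = 0.64), so differences of up to 3.4-fold upward and to 0.54 of the SOX2-positive level downward remain within the interval. Thus 2 of 3 members were called higher, where 24% of all genes tested were called, 12.9% higher and 11.1% lower.

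The difference between fractions was present in each pair of fractions from the same dose and repeat. SOX17 was 271-fold and 241-fold higher in SOX2-negative cells at 100 ng/ml, 111-fold at 300 ng/ml, and 143-fold and 39.1-fold at 1000 ng/ml. SOX18 was 6.7-fold and 53-fold higher at 100 ng/ml, 19.5-fold at 300 ng/ml, and 22.1-fold and 9.98-fold at 1000 ng/ml. Both genes were therefore higher in 5 of 5 pairs, in both repeats, and the share of all genes that were so was not counted. The SOX7 ratio lay on either side of 1, at 0.501 and 1.98 at 100 ng/ml, 0.883 at 300 ng/ml, and 0.864 and 2.09 at 1000 ng/ml. Without WNT3A 100 SOX2-negative replicate 2, the library that stood apart, the log2 fold change was 6.9 for SOX17 (edgeR adjusted p = 1.7e-06) and 3.73 for SOX18 (edgeR adjusted p = 0.00031).

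**Figure D2:**
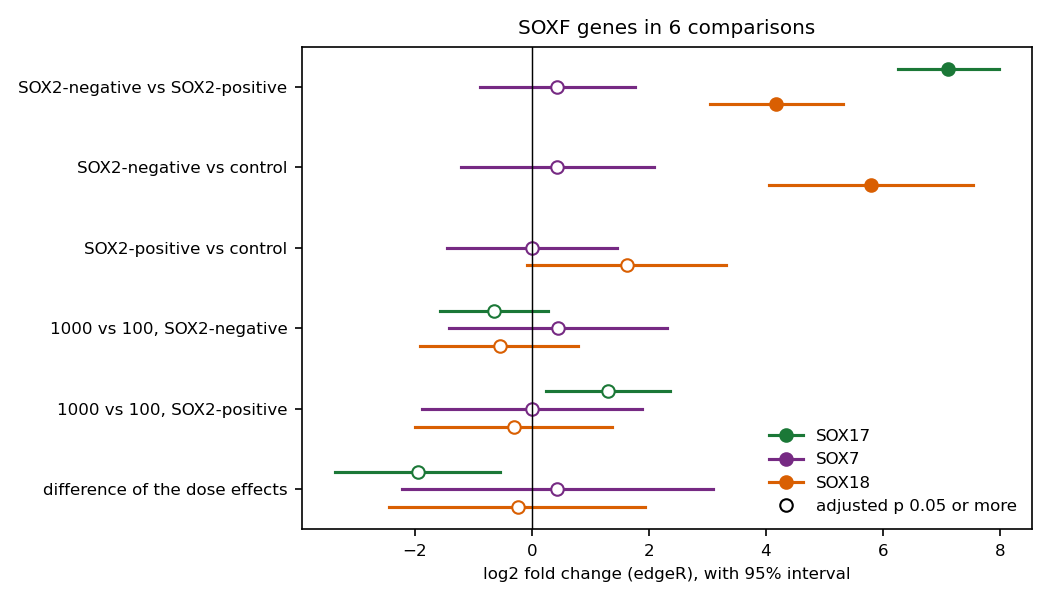
Log2 fold change (x axis) of the SOXF genes in each comparison (rows), with points for the estimate and bars for the 95% interval from edgeR; SOX17 against control is left out because its control counts are 0. SOX17 and SOX18 lie at 7.12 and 4.18 between the fractions, while the intervals of SOX7 include 0 in each comparison shown and open points did not pass.

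The members differed from one another in how they changed between the fractions. The log2 ratio of SOX17 to SOX7 was 8.27 ± 1.02 in SOX2-negative cells and 1.41 ± 0.98 in SOX2-positive cells (SD, n = 4 each), a difference of 6.86. The log2 ratio of SOX17 to SOX18 was 5.33 ± 0.39 in SOX2-negative cells and 2.14 ± 1.29 in SOX2-positive cells (SD, n = 4 each), a difference of 3.19. The log2 ratio of SOX7 to SOX18 was -2.95 ± 1.19 in SOX2-negative cells and 0.73 ± 0.34 in SOX2-positive cells (SD, n = 4 each), a difference of -3.68. Each of the 3 gave p = 0.029 in a two-sided exact permutation test, also after adjustment over the 3 ratios, which is the smallest p that 4 against 4 libraries allow. Ratios used CPM plus 0.1. With the libraries paired by dose and repeat, 4 pairs allow no p below 0.12, the value each ratio then had.

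Per kilobase of exon, SOX17 made up nearly all SOXF transcript in the SOX2-negative fraction. The exonic lengths were 2342 bases for SOX17, 3216 bases for SOX7 and 1864 bases for SOX18. SOX17 carried 95.9% to 97.6% of the summed CPM per kilobase in SOX2-negative libraries, 38.3% to 81.9% in SOX2-positive libraries and 0% in control. The sum itself was 149 to 330 CPM per kilobase in SOX2-negative libraries, 1.85 to 4.52 in SOX2-positive libraries and 0.335 and 0.716 in control. In each SOX2-negative library the order per kilobase was SOX17, then SOX18, then SOX7, with SOX18 at 2.28% to 3.91% and SOX7 at 0.0994% to 0.624% of the sum. In SOX2-positive libraries SOX17 also came first, but in WNT3A 100 SOX2-positive replicate 1 it stood at 0.79 CPM per kilobase beside 0.744 for SOX18 and 0.527 for SOX7. The order of SOX7 and SOX18 changed from library to library in the SOX2-positive fraction, and also between the controls.

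Against control, the treated fractions differed in SOX17 and, for the SOX2-negative fraction, in SOX18. The SOX17 mean was at least 8290-fold higher in SOX2-negative cells than the control floor of 3 counts over the group (edgeR adjusted p = 5.9e-06). SOX18 averaged 13.7 ± 6.99 CPM in SOX2-negative cells (SD, n = 4) and 0.229 ± 0.18 CPM in control (SD, n = 2), a 55.6-fold difference with an interval of 16.6 to 187 (edgeR adjusted p = 0.00045). SOX7 averaged 1.29 ± 1.18 CPM in control (SD, n = 2) and did not pass the test, with a log2 fold change of 0.44 and an interval of -1.21 to 2.09 (edgeR adjusted p = 0.73). Of the 3 members 2 were called higher, where 22.5% of all genes tested were called, 12.4% higher and 10.1% lower.

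The SOX2-positive fraction was also above control in SOX17; this comparison uses the same 2 control libraries. Its SOX17 mean was at least 68-fold higher than the control floor (edgeR adjusted p = 0.0016), and the lowest of its libraries at 100 and 1000 ng/ml was at least 29.5-fold higher. SOX18 gave a log2 fold change of 1.62 with an interval of -0.08 to 3.32 and did not pass (edgeR adjusted p = 0.26). It passed at an adjusted p of 0.026 by edgeR when no filter on low counts was applied. SOX7 gave a log2 fold change of 0 with an interval of -1.45 to 1.45 (edgeR adjusted p = 1). Thus 1 of 3 members was called higher, where 7.81% of all genes tested were called, 4.65% higher and 3.17% lower.

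A sort passes some cells across the gate, so the SOX2-positive level was set beside the SOX2-negative level of the same dose and repeat. SOX17 in the SOX2-positive library was 0.37% and 0.415% of its SOX2-negative level at 100 ng/ml, 0.902% at 300 ng/ml, and 0.697% and 2.56% at 1000 ng/ml. The 14 endoderm markers called higher between the fractions had median percentages of 1.82, 3.06, 2.19, 3.7 and 3.31 in the same order of pairs. The SOX17 percentage was below that median in each. Those markers were chosen by the same contrast, which the percentage inverts. The comparison thus restates the larger SOX17 fold change and is no separate evidence. SOX18 stood at 14.9% and 1.89% at 100 ng/ml, 5.12% at 300 ng/ml, and 4.52% and 10% at 1000 ng/ml. SOX2 in the SOX2-negative libraries was 0.429% to 1.25% of its level in the matching SOX2-positive libraries. The part of cells that crossed the gate in the SOX2-positive SOX17 level was not tested.

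WNT3A dose was compared as 1000 against 100 ng/ml within each fraction. In SOX2-negative cells SOX17 averaged 418 CPM at 1000 ng/ml and 622 CPM at 100 ng/ml, a log2 fold change of -0.65 with an interval of -1.57 to 0.27 (edgeR adjusted p = 0.38). In SOX2-positive cells it gave a log2 fold change of 1.3 with an interval of 0.24 to 2.36, an unadjusted p of 0.021 and an edgeR adjusted p of 1. The difference between these dose effects was -1.95 with an interval of -3.36 to -0.55, an unadjusted p of 0.012 and an edgeR adjusted p of 0.53. None of the members was called in these 3 comparisons, where 0% of all genes tested were called. At an unadjusted p under 0.05, 3107, 293 and 1349 genes passed in the SOX2-negative dose comparison, the SOX2-positive dose comparison and their difference, and DESeq2 called 411, 5 and 16.

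The SOX17 dose values turned on single libraries and on the filter. The SOX2-negative dose effect was -0.23 without WNT3A 100 SOX2-negative replicate 2. The SOX2-positive dose effect was 0.48 without WNT3A 1000 SOX2-positive replicate 2, the library with 8.68 CPM. The difference between dose effects passed, at -2.26 and an edgeR adjusted p of 0.028, without WNT3A 100 SOX2-negative replicate 1. It also passed with no filter on low counts, at an edgeR adjusted p of 0.00031, as did the SOX2-positive dose effect at 0.0039. SOX18 had a dose effect of -0.55 in SOX2-negative cells (edgeR adjusted p = 0.61), which was 0.34 without WNT3A 100 SOX2-negative replicate 2. In SOX2-positive cells it was -0.31, and in each fraction the interval of SOX7 included 0.

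SOX7 needs a separate account because its counts were split between 2 identifiers. ENSG00000171056 is the annotated gene on chromosome 8, minus strand, bases 10723768 to 10730512 of GRCh38 in GENCODE 29, with 2 exons. ENSG00000285438 carried the same symbol in the table and is not in that annotation. The first was at 0 in 5 of 12 libraries, and the second was at 0 in WNT3A 300 SOX2-positive, where the first held 16.59 estimated counts. In WNT3A 100 SOX2-negative replicate 2 the first held 0 and the second 50, whereas in WNT3A 1000 SOX2-negative replicate 2 they held 31.62 and 41.38. A readthrough transcript from the neighbouring gene PINX1, ENSG00000258724, shares 1268 of the 3216 exonic bases of SOX7, or 39.4%, and held 0 to 10.52 estimated counts per library. With that identifier added, an alternative chosen after seeing the data, the SOX7 log2 fold change between fractions was 0.43 (edgeR adjusted p = 0.58). A further PINX1 identifier, ENSG00000284764, is not in that annotation and was not added. It held 26.55 estimated counts in control replicate 2, 5.124 in WNT3A 100 SOX2-positive replicate 1 and 0 elsewhere. Whether it shares sequence with SOX7 was not tested. The main comparisons use the SOX7 sum. The sequence of ENSG00000285438 was not examined, and how reads were split between the identifiers is uncertain.

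**Figure D3:**
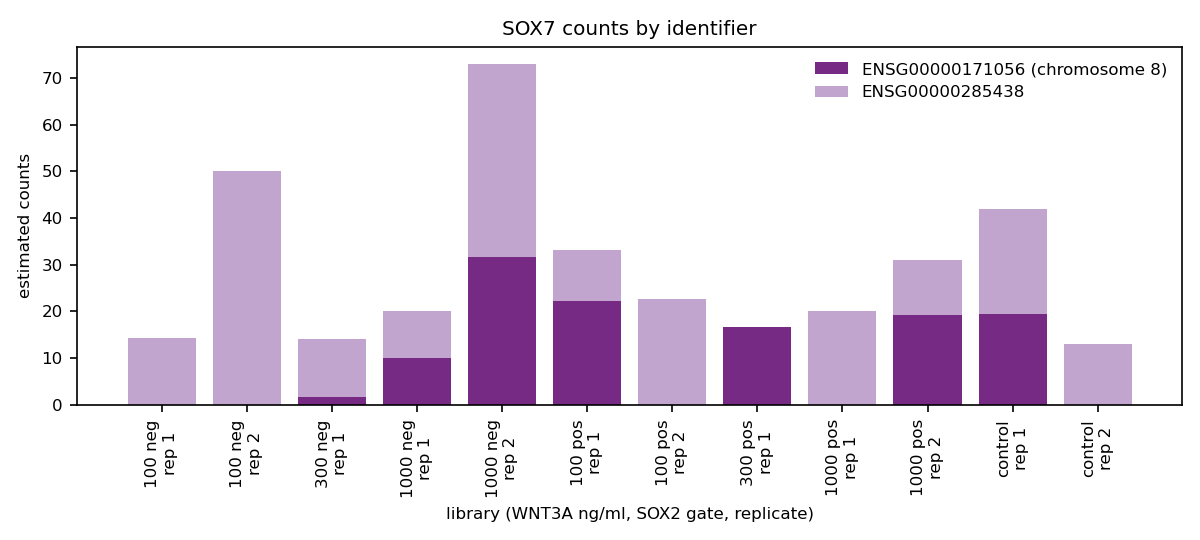
Estimated counts (y axis) of the 2 identifiers with the SOX7 symbol, stacked per library (x axis). ENSG00000171056 is at 0 in 5 of 12 libraries, ENSG00000285438 is at 0 in the SOX2-positive library at 300 ng/ml, and the highest stack, 73 counts, is WNT3A 1000 SOX2-negative replicate 2.

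SOX17 lies on chromosome 8, plus strand, bases 54457935 to 54460888, as identifier ENSG00000164736. SOX18 lies on chromosome 20, minus strand, bases 64047582 to 64049641, as identifier ENSG00000203883. Each has 1 transcript of 2 exons in GENCODE 29 on GRCh38. Genes within 250 kb of each member were compared between the same fractions. Near SOX17, 7 annotated genes were in the table and 1 passed the filter, the pseudogene AC091076.1, which lies 6.3 kb away. It was at 0.0607 to 0.734 CPM in SOX2-negative libraries and at 0 in all others, with a log2 fold change of 5.33 that did not pass (edgeR adjusted p = 0.053). It passed at 0.047 with only the compared groups fitted, at 0.029 with 3 doses averaged and at 0.049 without the SOX2-positive library at 300 ng/ml. Near SOX7, 0 of the 4 neighbours tested were called, PINX1, summed over its identifiers, among them at 0.05 (edgeR adjusted p = 0.88). Near SOX18, 2 of 15 tested were called higher, a share near the 12.9% of all genes. C20orf204, 7.6 kb away, had a log2 fold change of 1.63 (edgeR adjusted p = 0.0082), and ZBTB46, 216.3 kb away, had one of 0.73 (edgeR adjusted p = 0.0095, and 0.051 without WNT3A 1000 SOX2-positive replicate 1). TCEA2, whose annotated span lies 0.2 kb from SOX18, had 0.41 and did not pass (edgeR adjusted p = 0.22). With WNT3A 100 SOX2-negative replicate 1 left out it passed, at 0.62 and an edgeR adjusted p of 0.0075.

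The genes whose profile was most like each member were found as the smallest root mean square difference of log2 CPM, centred per gene, over the 12 libraries and 17046 genes. For SOX17, whose own spread was 4.66 on that scale, these included GATA4 at 1.04, FOXA2 at 1.13, GATA6 at 1.27 and APLNR at 1.38. GATA4, FOXA2 and GATA6 are endoderm transcription factors that are also on the marker list below, and APLNR is the apelin receptor. For SOX18, with a spread of 2.3, they were KIF19 at 0.39, SRARP at 0.54, FBLN2 at 0.55, NFATC1 at 0.56 and SP5 at 0.61. NFATC1 is a transcription factor of endocardium, FBLN2 an extracellular matrix protein and SP5 a WNT target gene. For SOX7, with a spread of 0.67, they were TBX19, LRRC19, GLYATL1, NHLH2 and VEPH1 at 0.42 to 0.46, none of which was called between the fractions. The members themselves were farther apart, at 2.31 for SOX7 and SOX18, 2.57 for SOX17 and SOX18 and 4.58 for SOX17 and SOX7, and these distances share the same libraries and so describe them only.

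SOX17 is itself an endoderm marker, and the other markers of that layer were set beside it. Of 16 definitive endoderm markers, 14 were called higher in the SOX2-negative fraction and 0 lower. Of all genes tested, 12.9% were called higher and 11.1% lower. The markers had a median log2 fold change of 5.42, where the median of all genes was 0.01. GATA4, a zinc finger factor of endoderm and heart, averaged 161 ± 54.1 CPM in SOX2-negative cells and 2.21 ± 1.66 CPM in SOX2-positive cells (SD, n = 4 each), a log2 fold change of 6.62. FOXA2, a pioneer factor of endoderm, averaged 189 ± 53.5 CPM in SOX2-negative cells and 4.77 ± 2.26 CPM in SOX2-positive cells (SD, n = 4 each). HNF4A and GATA6, transcription factors of endoderm and liver, had 6.44 and 6.18. The SOX17 value of 7.12 was above that of each of the 16 markers. The summed level of the list was 1150 to 2090 CPM in SOX2-negative libraries, 101 to 178 CPM in SOX2-positive libraries and 106 to 116 CPM in control.

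Against control, most endoderm markers rose with SOX17 in SOX2-negative cells, whereas fewer did in SOX2-positive cells. In SOX2-negative cells 13 of 16 were called higher and 0 lower, with a median log2 fold change of 7.55. Of all genes tested, 12.4% were called higher and 10.1% lower in that comparison. In SOX2-positive cells 6 were called higher, 2 lower and 8 were not called, with a median of 2.38. There, 4.65% of all genes tested were called higher and 3.17% lower. GATA4 was at 0.719 to 3.71 CPM in SOX2-positive libraries and at 0 and 0.142 CPM in control. The count of 6 was 2 without control replicate 2.

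**Figure D4:**
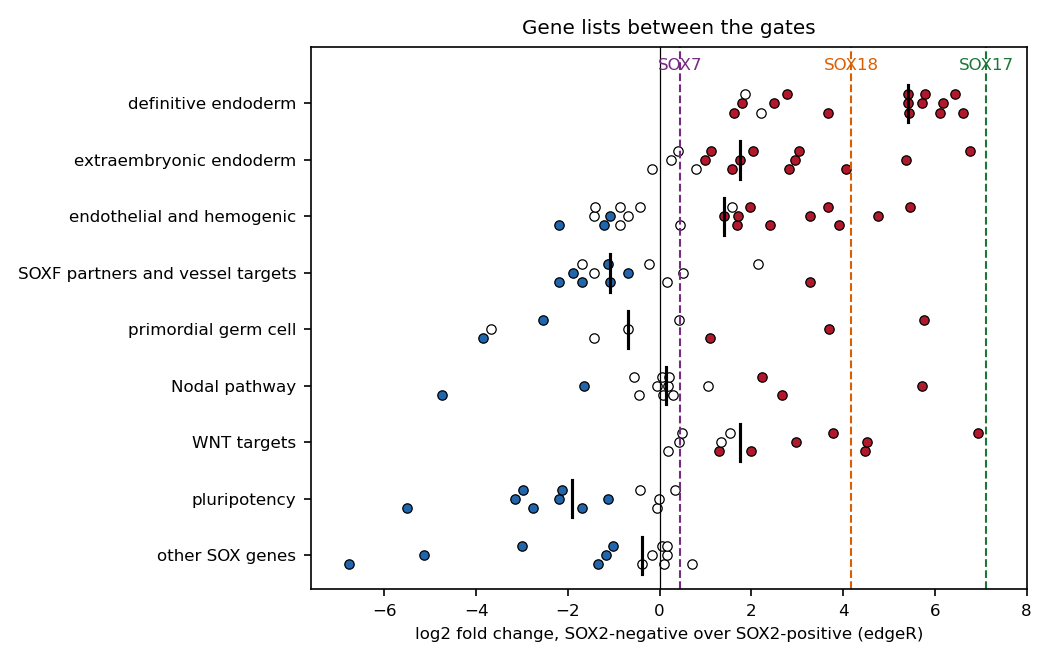
Log2 fold change of SOX2-negative over SOX2-positive (x axis) for each tested gene of 9 lists (rows), with red points for genes called higher, blue for called lower, open for not called, a black bar at each list's median and dashed lines at the SOXF genes. SOX17 at 7.12 lies beyond each list's genes, of which LGR5 comes nearest at 6.93.

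Extraembryonic endoderm markers, the other endoderm in which SOX17 and SOX7 are known, were also higher. Of 15 tested, 11 were called higher in the SOX2-negative fraction and 0 lower, with a median log2 fold change of 1.76. Of all genes tested, 12.9% were called higher and 11.1% lower. APOA1, an apolipoprotein of visceral endoderm and liver, averaged 13.2 ± 9.39 CPM in SOX2-negative cells and 0.233 ± 0.433 CPM in SOX2-positive cells (SD, n = 4 each), a log2 fold change of 6.77. DAB2, an endocytic adaptor of extraembryonic endoderm, had 4.06 and APOA2, another apolipoprotein, 5.37. TTR, also a gene of visceral endoderm and liver, was at 0 in each of the 12 libraries. The summed level of the list was 4680 to 5940 CPM in SOX2-negative libraries, 1700 to 1810 CPM in SOX2-positive libraries and 1980 to 2160 CPM in control. Basement membrane genes on this list are expressed in many tissues, and the part of extraembryonic cells in the SOX17 level was not tested.

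Endothelial markers, whose cells would carry all 3 members, moved in both directions. Of 21 tested, 10 were called higher in the SOX2-negative fraction and 3 lower, with a median log2 fold change of 1.4, where 12.9% of all genes were called higher and 11.1% lower. The count of 3 became 5 without WNT3A 100 SOX2-negative replicate 1. RUNX1, a factor of hemogenic endothelium and blood, averaged 35.6 ± 22.8 CPM in SOX2-negative cells and 0.941 ± 0.559 CPM in SOX2-positive cells (SD, n = 4 each). VWF averaged 391 ± 171 CPM in SOX2-negative cells and 14.7 ± 11.6 CPM in SOX2-positive cells (SD, n = 4 each), but it was at 111 ± 17.4 CPM in control (SD, n = 2), where SOX17 was at 0. PECAM1, the endothelial adhesion molecule CD31, averaged 5.5 ± 0.522 CPM in SOX2-negative cells and 0.382 ± 0.257 CPM in SOX2-positive cells (SD, n = 4 each). The summed level was 538 to 884 CPM in SOX2-negative libraries, 316 to 402 CPM in SOX2-positive libraries and 289 to 297 CPM in control.

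Of the other endothelial genes, CD34, GATA2, TIE1, LMO2 and NOS3 were among the 10 called higher, beside 3 called lower. Some others were low or went the other way. EMCN was at 0 in each SOX2-negative library, and ERG averaged 0.455 ± 0.4 CPM in SOX2-negative cells and 0.616 ± 0.404 CPM in SOX2-positive cells (SD, n = 4 each). ERG was not called, at -0.87 (edgeR adjusted p = 0.46). KDR, the main VEGF receptor of vessels and also a gene of mesoderm, was called lower in SOX2-negative cells at -1.08 (edgeR adjusted p = 0.026). Its values were 20.3 and 20.2 CPM at 100 ng/ml, 41.9 CPM at 300 ng/ml and 81.6 and 271 CPM at 1000 ng/ml in SOX2-negative libraries. In SOX2-positive libraries they were 112 and 98.6 CPM at 100 ng/ml, 166 CPM at 300 ng/ml and 196 and 145 CPM at 1000 ng/ml. WNT3A 1000 SOX2-negative replicate 2, the highest for KDR, was also the highest library for SOX7 and the lowest SOX2-negative library for SOX17 and SOX18. The KDR call was lost, at an edgeR adjusted p of 0.069, without the first SOX2-positive library at 100 ng/ml. It was lost at 0.058 without the other of that dose, and at 0.078 by leaving out WNT3A 1000 SOX2-positive replicate 1. The part of endothelial cells in the member levels was not tested.

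Described partners and vessel targets of the SOXF factors did not follow SOX17 as a group. Of 13 tested, 1 was called higher in the SOX2-negative fraction and 6 lower, with a median log2 fold change of -1.08, where 12.9% of all genes were called higher and 11.1% lower. CDH5, the endothelial cadherin, was the one called higher, with 3.06 ± 0.479 CPM in SOX2-negative cells and 0.385 ± 0.285 CPM in SOX2-positive cells (SD, n = 4 each). PROX1, a SOX18 target in mouse lymphatic precursors, averaged 0.999 ± 1.02 CPM in SOX2-negative cells and 3.65 ± 2.04 CPM in SOX2-positive cells (SD, n = 4 each) and was called lower at -2.19. EFNB2, an arterial ligand, averaged 11.7 ± 4.56 CPM in SOX2-negative cells and 43.6 ± 3.52 CPM in SOX2-positive cells (SD, n = 4 each), a log2 fold change of -1.89. POU5F1, the pluripotency factor OCT4 that binds DNA beside SOX17 in endoderm, averaged 446 ± 177 CPM in SOX2-negative cells and 1480 ± 415 CPM in SOX2-positive cells (SD, n = 4 each). It was called lower at -1.69, and its near-identical copies elsewhere in the genome make the value uncertain. Against control, POU5F1 was not called in SOX2-negative cells, at -0.07 (edgeR adjusted p = 0.91). In SOX2-positive cells it was called higher than in control, at 1.62 (edgeR adjusted p = 0.015). Of the 13 genes, 2 were called higher and 2 lower in SOX2-negative cells against control. Of all genes tested, 12.4% were called higher and 10.1% lower there. The count of 2 lower moved in 5 of 19 alternative runs.

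Primordial germ cells are the other human cell type for which SOX17 is a defining factor. Of 9 germ cell genes tested, 3 were called higher in the SOX2-negative fraction and 2 lower, with a median log2 fold change of -0.68, where 12.9% of all genes were called higher and 11.1% lower. NANOS3, one of those called higher, lost its call at an edgeR adjusted p of 0.054 without the second SOX2-negative library at 100 ng/ml, and also without the second SOX2-positive library at 100 ng/ml (0.069) or at 1000 ng/ml (0.07). DPPA3, one of those called lower, lost its call, leaving 1 lower, without WNT3A 1000 SOX2-negative replicate 1 (0.053), or without the second SOX2-positive library at 100 ng/ml (0.053) or at 1000 ng/ml (0.074). PRDM1, which acts in endoderm as well, averaged 103 ± 29.6 CPM in SOX2-negative cells (SD, n = 4), 1.95 ± 0.283 CPM in SOX2-positive cells (SD, n = 4) and 29.7 ± 0.225 CPM in control (SD, n = 2). TFAP2C, a germ cell factor, averaged 2.59 ± 0.714 CPM in SOX2-negative cells and 15.8 ± 7.15 CPM in SOX2-positive cells (SD, n = 4 each) and was called lower at -2.54. DDX4 did not pass the filter.

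The signals upstream of SOX17 in endoderm are Nodal and WNT. Of 14 Nodal pathway genes, 3 were called higher in the SOX2-negative fraction and 2 lower, with a median log2 fold change of 0.13, where 12.9% of all genes were called higher and 11.1% lower. CER1, a secreted Nodal and BMP inhibitor, had a log2 fold change of 5.72 (edgeR adjusted p = 0.0069). It varied widely among SOX2-negative libraries, with 39.3 and 3.11 CPM at 100 ng/ml, 73.2 CPM at 300 ng/ml and 211 and 25.1 CPM at 1000 ng/ml. Its lowest value was in WNT3A 100 SOX2-negative replicate 2, the library with the highest SOX17 and SOX18. NODAL did not pass, at -0.55 (edgeR adjusted p = 0.64). GDF3 was called lower, at -4.75 (edgeR adjusted p = 0.00092). LEFTY2 was called higher, at 2.66, a call lost in 3 of 19 alternative runs. Against control, 6 of the 14 were called higher and 1 lower in SOX2-negative cells, where 12.4% and 10.1% of all genes were. LEFTY2 had 7.46 in that comparison (edgeR adjusted p = 0.0028). The count of 6 was smaller when either control library was left out. Between the fractions, 7 of 12 WNT target genes were called higher and 0 lower, with a median of 1.76. LGR5, an R-spondin receptor, had 6.93, NOTUM 4.51, DKK1 4.48 and SP5 3.77, whereas AXIN2 had 0.43 and did not pass (edgeR adjusted p = 0.28).

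Of the other SOX genes, 17 are in the table and 13 passed the filter. Of all genes tested, 12.9% were called higher in the SOX2-negative fraction and 11.1% lower. Among these 13, 0 were called higher and 6 lower, with a median log2 fold change of -0.38. The count of 0 became 1 with DESeq2 and 1 with edgeR without WNT3A 100 SOX2-negative replicate 1. SOX2, which the sort selected, had -6.78 and is no finding. SOX3, its close relative of the B group, averaged 0.572 ± 0.575 CPM in SOX2-negative cells and 19 ± 3.67 CPM in SOX2-positive cells (SD, n = 4 each), a log2 fold change of -5.13. The summed level of these genes was 572 to 634 CPM in SOX2-negative libraries, 1210 to 1350 CPM in SOX2-positive libraries and 1580 to 1700 CPM in control. SOX17 alone, at 339 to 744 CPM, was near that sum in the SOX2-negative fraction. These CPM are not divided by exonic length, so they do not compare transcript numbers between genes.

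**Figure D5:**
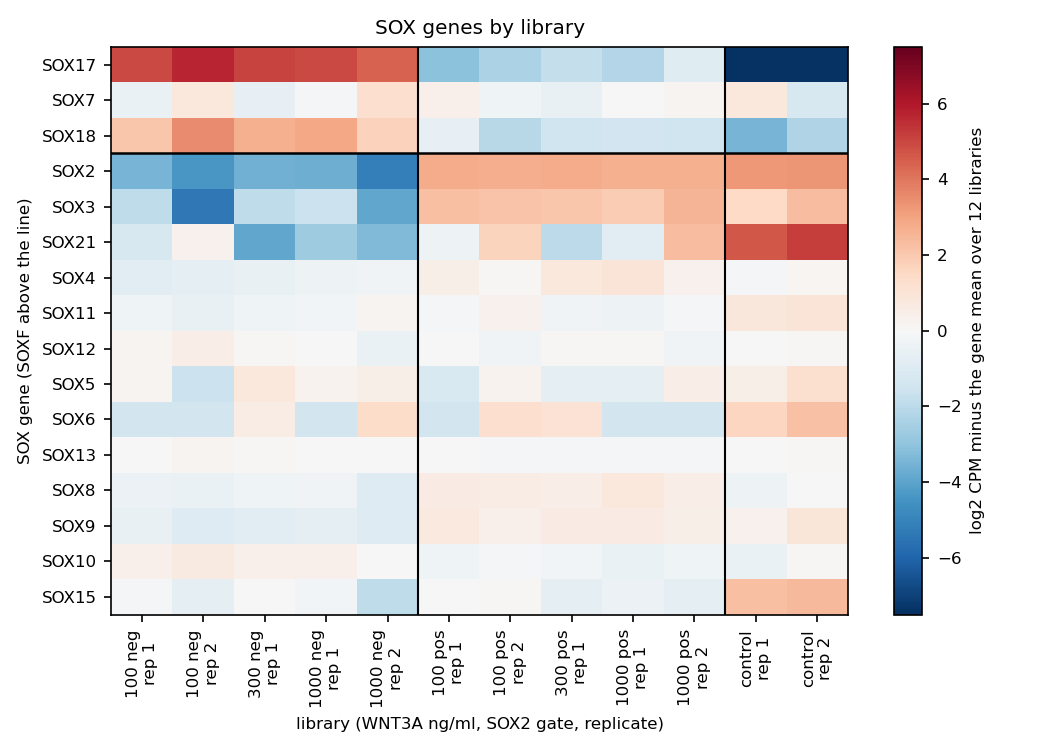
Log2 CPM, centred on each gene's mean over the 12 libraries (colour), for SOX genes in rows and libraries in columns. SOX17 and SOX18 are above their means in the SOX2-negative libraries, where SOX2 and SOX3 are below theirs, and SOX7 stays near its mean.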

How the data were processed

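Poly-A RNA was sequenced as paired reads, per the labels. Expected counts per gene were estimated with Salmon on GRCh38, per the submitters' processing notes; versions, annotation and strand handling are not given in the sources used here. The deposited table holds 37951 identifiers, of which 35003 are in GENCODE 29. Identifiers of 1 symbol were summed and rounded to whole counts, and CPM are counts per 1000000 counts of a library. edgeR 4.0.16 in R 4.3.3 fitted 7 group means over all 12 libraries (TMM scaling, filterByExpr with a minimum count of 10 and total of 15), with two-sided quasi-likelihood tests, Benjamini-Hochberg adjustment over 17047 genes and a threshold of 0.05. DESeq2 1.42.0 was an alternative. The second set of libraries was a biological repeat and both gates of a dose came from the same colonies, per the labels, so same-numbered libraries were taken as pairs. Their deviations from the group means correlated weakly, with r from -0.06 to 0.22 over 10 pairs of groups. List genes named are those called with the largest changes, up to 4 per list, beside markers at 0. A few others were chosen after their values were seen: ERG, KDR, NODAL and AXIN2. Members and lists were chosen with earlier results of these data known. The code was tested on simulated data. One gene that the rules for named genes select is not reported here.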

Additional observations from a re-analysis of the deposited data

How the results depend on the processing

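SOX17 and SOX18 between the fractions, both against control in SOX2-negative cells, and SOX17 in SOX2-positive cells against control kept their direction and their call under each alternative run. Leaving out 1 library gave 6.85 to 7.53 for SOX17 and 3.73 to 4.7 for SOX18 between the fractions. With the replicate block, SOX17 was 7.19 and SOX18 4.19 between the fractions; the block changed no member's call, added 1 call among all genes in the SOX2-negative dose comparison and, as exact sign flips within pairs, gave p = 0.12 for the ratios of 6.86, 3.19 and -3.68. With no filter on low counts, 2158 genes were called in SOX2-positive cells against control (SOX18 at 1.61), 1551 and 107 for dose in SOX2-negative and SOX2-positive cells (SOX17 at 1.3 in SOX2-positive cells), and 308 for the difference (SOX17 at -1.95). DESeq2 called 2059, 411, 5 and 16 in the same order. With only the compared groups fitted, 3243 genes were called in SOX2-positive cells against control and 1 for dose in SOX2-negative cells. With identifiers kept apart, the SOX7 identifier with more counts, ENSG00000285438, had the reverse sign of the SOX7 sum at -0.42 for dose in SOX2-negative cells and -0.6 for the difference between dose effects, and 1 gene each was called for dose in SOX2-positive cells and for that difference.

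Without 1 library, genes called ranged from 2638 to 6835 between the fractions (lowest without WNT3A 100 SOX2-positive replicate 2, highest without WNT3A 100 SOX2-negative replicate 1), 1750 to 6111 in SOX2-negative cells against control, 250 to 2439 in SOX2-positive cells against control, 0 to 5739 for dose in SOX2-negative cells and 0 to 3795 for the difference between dose effects. SOX7 ranged from -0.05 to 0.7 between the fractions, -0.28 to 1.87 and -0.72 to 1.43 against control in SOX2-negative and SOX2-positive cells, and -0.49 to 1.28 both for dose in SOX2-negative cells and for the difference. SOX18 ranged from -1.29 to 0.34 and from -0.95 to 0.74 for dose in SOX2-negative and SOX2-positive cells, and from -1.29 to 0.66 for the difference. SOX17 ranged from -2.45 to -1.12 for the difference. The ratios ranged from 6.43 to 7.36 (SOX17 over SOX7), 2.6 to 3.63 (SOX17 over SOX18) and -4.26 to -3.39 (SOX7 over SOX18); 1 of 8 omissions for SOX17 over SOX18 and 4 of 8 for SOX7 over SOX18 gave an exact permutation p of 0.057. Between the fractions LRRC19 ranged from -0.41 to 0.76, TBX19 from -0.11 to 0.39, NHLH2 from -0.13 to 1.08 and NODAL from -1.72 to 0.34. The causes were not tested. SOX7 rests on 12.94 to 73 counts per library and SOX18 in control on 2 and 10, so counting error is large in both; its share of their spread was not tested.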

Other observations

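Pluripotency genes moved against SOX17 between the fractions. Of 12 tested, 8 were called lower in SOX2-negative cells than in SOX2-positive cells and 0 higher, with a median log2 fold change of -1.9 (PRDM14 -5.51, NANOG -2.98, DPPA4 -2.2, edgeR). Of all genes tested, 11.1% were called lower and 12.9% higher. Between SOX2-negative cells and control, 8 of the 12 were called lower and 1 higher, with a median of -1.06. In that comparison 10.1% of all genes tested were called lower and 12.4% higher. PRDM14 had -6, and NANOG, a core factor of the pluripotent state, had -0.14 and did not pass (edgeR adjusted p = 0.9). KDR, which was lower in the SOX17-rich fraction, was higher in SOX2-positive cells than in control, with 138 ± 43.2 CPM (SD, n = 4) and 8.92 ± 1.8 CPM (SD, n = 2), a log2 fold change of 3.84 (edgeR adjusted p = 0.001). It was also called higher in SOX2-negative cells than in control, at 2.75 (edgeR adjusted p = 0.0011).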
